A study of Saccharomyces cerevisiae with 6 samples.

Results

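The 727 genes described here are budding yeast open reading frames (ORFs) that the deposited table classes as Uncharacterized and that had at least 10 scaled reads in at least 2 of the 6 libraries. They were 727 of the 852 uncharacterized ORFs, and of the 5795 genes, in a table of 6192 features. A further 125 uncharacterized ORFs stayed under the limit, 12 of them with no read in any library. Because the reads themselves chose the members, the limit is described and not tested. An ORF is put in this class by sequence, conservation or detection while its gene product had no experimentally shown function when the table was annotated. Many have since been studied, and 351 of the 727 now carry a gene name in the RefSeq annotation of build R64.

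The study sequenced ribosomal-RNA-depleted, strand-specific libraries of total RNA from Saccharomyces cerevisiae lacking a GATA-family transcription factor, with 2 biological replicates in each of 3 groups. The groups were dal80Δ cells in glutamine medium, gat1Δ cells in proline medium and gat1Δ cells in glutamine medium. All 6 libraries therefore carry a deletion in the pathway under study, and neither wild-type cells nor dal80Δ cells in proline were analysed here. Gat1 is an activator and Dal80 a repressor that bind GATA sequences in front of genes for the use of nitrogen compounds. Cells fed a good nitrogen source, glutamine among them, keep such genes low, which is called nitrogen catabolite repression. On a poorer source such as proline the repression is lifted. The values of an uncharacterized ORF can thus be set beside those of known nitrogen genes, without its function being known. A move with the medium or the strain does not by itself tie an ORF to nitrogen use.

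The libraries held 17009715 to 34718641 recovered reads. The reads of GAT1 separated the strains as labelled, with 1603 and 1062 reads in dal80Δ libraries, 3 and 2 in gat1Δ cells on proline and 2 and 2 in gat1Δ glutamine. DAL80 had 1 and 0 reads in dal80Δ libraries, 195 and 497 in gat1Δ cells on proline and 2 and 1 in gat1Δ glutamine. As DAL80 was near 0 in gat1Δ glutamine too, its reads are no check of the dal80Δ label in that medium. The 7 a-specific mating genes summed to 25721 to 27468 scaled reads per dal80Δ library, 4922 to 6517 in gat1Δ cells on proline and 171 to 193 in gat1Δ glutamine. The 4 α-specific genes summed to 433 to 448 scaled reads per dal80Δ library, 84262 to 89581 in gat1Δ cells on proline and 36055 to 36270 in gat1Δ glutamine. No gene of either list was at 0 reads in any group. In the dal80Δ comparison with gat1Δ in glutamine, all 7 a-specific genes were higher and all 4 α-specific genes lower, so mating type and deletion cannot be told apart between the strains. Within gat1Δ, all 7 a-specific genes were higher in proline than in glutamine too (median log2 fold change 4.68, and 4.22 with TMM scaling), while 2 of the 4 α-specific genes were higher and 0 lower. The labels used here give no mating type, and its part in the results was not tested. Of a list of 26 genes known for nitrogen catabolite repression, none of them a member, 24 rose and 1 fell in proline. Of all genes tested, 56.5% rose and 15.1% fell. In dal80Δ cells 12 of the 26 rose and 0 fell, where 3.97% of all genes tested rose and 1.48% fell. The list includes DAL80, the gene deleted in dal80Δ cells. DAL80 reached the limit on reads through the gat1Δ proline libraries alone and so had to differ.

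The windows in front of 6 members that moved strongly are printed first, because they hold the short motifs to which the results return. GATAAG is the core bound by GATA factors. AGGGG is the core of the stress response element bound by Msn2 and Msn4, activators of stress genes. Each window holds 300 bases of the RefSeq R64 genome, 250 before the ORF's start and 50 from it, 5′ to 3′ on the ORF's strand. Capitals mark each match of GATAAG or AGGGG on either strand (CTTATC and CCCCT when read on the other strand). The windows are YCL048W-A (chr3:41238-41537, plus strand), YER053C-A (chr5:260997-261296, minus strand), FMP16 (chr4:588330-588629, minus strand), CPP3 (chr4:521064-521363, plus strand), YKR075C (chr11:580701-581000, minus strand) and PIR5 (chr10:118776-119075, minus strand). YCL048W-A is shown for having both motifs, YER053C-A, FMP16 and CPP3 for AGGGG, and YKR075C and PIR5 for GATAAG. They were chosen after their values were seen.
YCL048W-A: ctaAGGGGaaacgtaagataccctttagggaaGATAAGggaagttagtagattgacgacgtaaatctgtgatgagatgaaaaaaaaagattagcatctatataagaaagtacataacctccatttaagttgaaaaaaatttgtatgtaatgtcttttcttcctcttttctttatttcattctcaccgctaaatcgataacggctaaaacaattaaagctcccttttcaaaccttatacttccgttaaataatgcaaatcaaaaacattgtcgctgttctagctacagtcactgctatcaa
YER053C-A: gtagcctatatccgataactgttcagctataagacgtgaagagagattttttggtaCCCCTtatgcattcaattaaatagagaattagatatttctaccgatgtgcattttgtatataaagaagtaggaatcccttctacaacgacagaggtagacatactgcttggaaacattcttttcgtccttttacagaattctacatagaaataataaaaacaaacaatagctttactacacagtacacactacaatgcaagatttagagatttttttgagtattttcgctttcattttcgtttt
FMP16: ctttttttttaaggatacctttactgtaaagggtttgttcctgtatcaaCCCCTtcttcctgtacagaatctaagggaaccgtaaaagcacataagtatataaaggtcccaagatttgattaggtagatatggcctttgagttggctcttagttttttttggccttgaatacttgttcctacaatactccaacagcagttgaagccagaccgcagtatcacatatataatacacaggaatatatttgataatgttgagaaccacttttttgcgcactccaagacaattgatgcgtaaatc
CPP3: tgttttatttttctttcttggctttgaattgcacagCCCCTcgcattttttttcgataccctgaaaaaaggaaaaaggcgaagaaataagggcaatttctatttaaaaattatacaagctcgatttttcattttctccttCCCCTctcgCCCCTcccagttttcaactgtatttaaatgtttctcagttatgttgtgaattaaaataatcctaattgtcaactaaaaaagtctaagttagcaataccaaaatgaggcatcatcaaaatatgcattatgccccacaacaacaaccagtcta
YKR075C: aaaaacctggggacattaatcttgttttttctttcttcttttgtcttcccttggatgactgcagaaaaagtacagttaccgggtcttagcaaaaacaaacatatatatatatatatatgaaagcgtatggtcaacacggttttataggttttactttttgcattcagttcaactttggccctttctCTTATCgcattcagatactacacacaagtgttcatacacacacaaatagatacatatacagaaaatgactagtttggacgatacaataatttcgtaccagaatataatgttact
PIR5: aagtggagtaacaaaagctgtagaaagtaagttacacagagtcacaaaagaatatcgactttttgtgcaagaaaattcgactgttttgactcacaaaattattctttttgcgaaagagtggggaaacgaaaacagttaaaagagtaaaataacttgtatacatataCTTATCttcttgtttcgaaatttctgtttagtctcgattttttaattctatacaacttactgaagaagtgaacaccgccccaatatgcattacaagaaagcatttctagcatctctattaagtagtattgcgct

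Uncharacterized ORFs were transcribed at lower levels than verified genes but spanned a wide range. Their median density, in scaled reads per base averaged over 6 libraries, was 0.222, against 0.371 for the 4863 verified genes tested. The middle 50% of members lay between 0.102 and 0.478 scaled reads per base, and 52 members held 50% of all member reads. Members took 2.85% ± 0.025 of gene reads in dal80Δ libraries, 3.76% ± 0.082 in gat1Δ cells on proline and 2.58% ± 0.074 in gat1Δ glutamine (SD, n = 2). The proline libraries thus gave the highest share in both replicates.

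The most abundant transcripts came from very short ORFs. YDR524C-B (chromosome 4, 1489598 to 1489798, minus strand) had a density of 176 and 186 scaled reads per base in dal80Δ libraries, 200.2 and 204 in gat1Δ cells on proline and 163 and 157 in gat1Δ glutamine. It stood above every other member in all 6 libraries and passed the test in neither comparison. YCR024C-B and YJL047C-A followed, with mean densities of 54.4 and 34.0, and then NCW1, a cell wall protein (25.1), YLR285C-A (20.6), MTC7 (16.6), the mitochondrial pyruvate carrier subunit MPC2 (15.9) and YNL190W (14.5). YJL047C-A shares 49 of its 135 bases with the small nucleolar RNA gene SNR60, which lies on the same strand at a mean density of 44.3, so its reads are uncertain. At the other end stood members that hardly varied. LUG1, with the smallest spread among members of at least 50 scaled reads on average, had 455 and 507 scaled reads in dal80Δ libraries, 467 and 483 in gat1Δ cells on proline and 469 and 456 in gat1Δ glutamine. YBL071C-B, TDA11, YPR063C and YPR170W-B were next, with log2 fold changes between -0.03 and 0.07 in proline. This evenness belongs to the authors' scaling: with TMM scaling all 5 fell in proline (adjusted p of 0.00886 to 0.0363).

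Under the authors' scaling, many more uncharacterized ORFs were higher in proline than lower, as were genes in general. In gat1Δ cells, 492 of 727 members (67.7%) passed the test, 415 higher and 77 lower in proline than in glutamine, where 71.6% of all 5594 genes tested passed, 56.5% higher and 15.1% lower. The share among members was thus near that of all genes. Their median log2 fold change was 0.56, against 0.50 for all genes. Of the 415 rises, 209 were at least 2-fold, 48 at least 4-fold and 13 at least 8-fold. Of the 77 falls, 21 were at least 2-fold and 2 at least 4-fold. The test was limma on log2 of the density plus 0.0229, with Benjamini-Hochberg adjustment over all genes and a threshold of 0.05, and these fold changes understate the change of low genes.

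The direction of the small changes depended on the scaling of the libraries. The deposited scaled reads of genes summed to nearly the same total in each of the 6 libraries (11821954 to 11822463). TMM factors, which take most genes as unchanged, were 1.34 and 1.28 for the gat1Δ proline libraries. They were 0.82 to 0.96 for the glutamine libraries. With these factors the median of all genes moved to 0.06 (a shift of -0.44) and that of the members to 0.14. Then 262 members rose and 177 fell, where 33.8% of all genes rose and 29.8% fell. All 262 of those rises were among the 415, and all 77 falls were called again. In bulk RNA, fewer cells with a transcript and less of it per cell cannot be told apart.

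**Figure D1:**
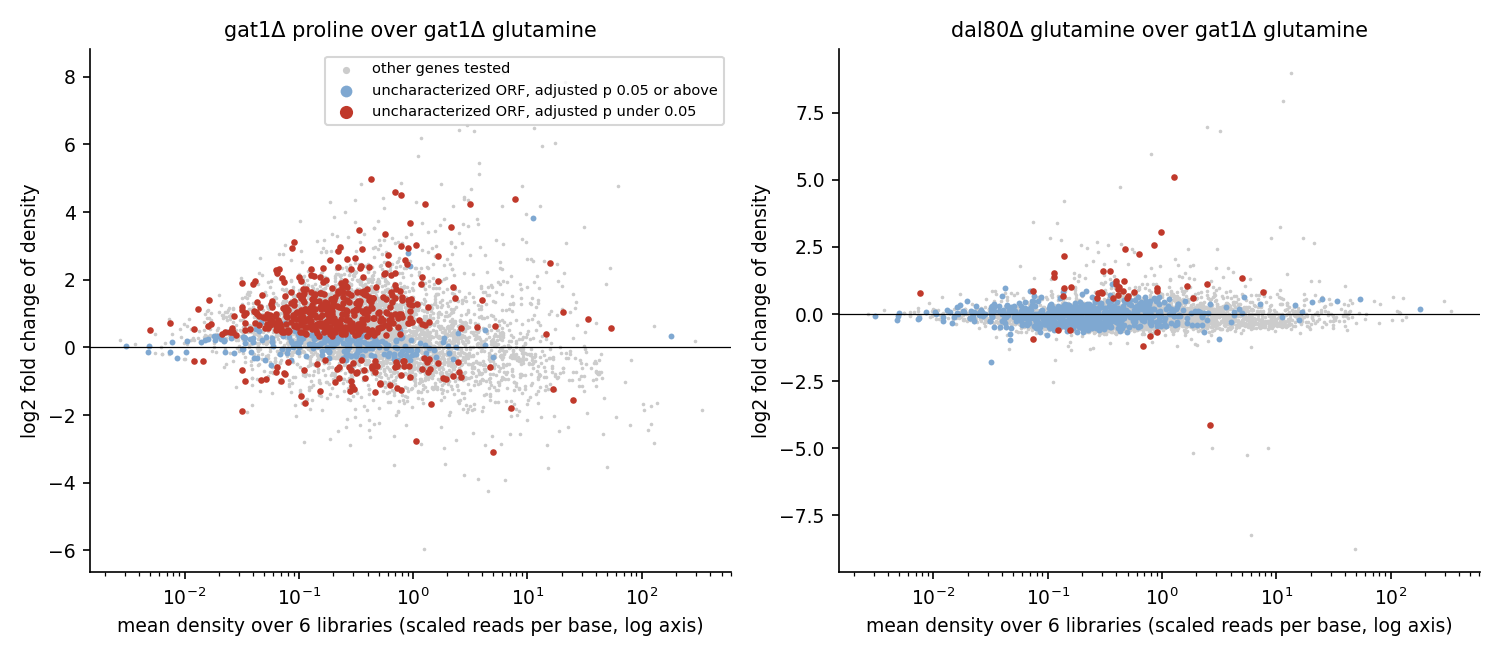
Each point is a gene tested, at its mean density over the 6 libraries (x, scaled reads per base, log axis) and its log2 fold change (y), for gat1Δ proline over gat1Δ glutamine (left) and dal80Δ glutamine over gat1Δ glutamine (right). Red points are the 492 and 44 uncharacterized ORFs past the threshold, blue points those not past it, and grey points other genes. The left cloud lies mostly above 0 and the right cloud is narrow around 0 with few members far from it.

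FMP23 came first in the ranking of rises in proline, but it reached the limit on reads through the gat1Δ proline libraries alone and so had to differ. Its values are a description and no test is given. FMP23 (YBR047W, chromosome 2, 331833 to 332360, plus strand), whose product was found in purified mitochondria, had 7.53 and 7.97 scaled reads in dal80Δ libraries, 913 and 413 in gat1Δ cells on proline and 7.88 and 7.79 in gat1Δ glutamine. All 4 glutamine libraries lay under the limit of 10 scaled reads. The gene that starts 321 bases away on the other strand, ZTA1, an enzyme that reduces quinones, also rose (log2 fold change 2.31 ± 0.24, adjusted p = 5.46e-05).

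YKR075C (chromosome 11, 579827 to 580750, minus strand) had 2167 and 1452 scaled reads in the gat1Δ proline libraries, against 63.9 and 45.1 in the gat1Δ glutamine libraries (log2 fold change 4.58 ± 0.20, adjusted p = 6.85e-07). No proline library came near a glutamine library, dal80Δ included (74.0 and 77.6). Its window above holds GATAAG 64 bases before the start. PIR5 (YJL160C, chromosome 10, 117962 to 118825, minus strand), of the family of cell wall proteins with internal repeats, had 1195 and 391 scaled reads in the gat1Δ proline libraries, against 45.5 and 42.3 in the gat1Δ glutamine libraries (log2 fold change 3.47 ± 0.40, adjusted p = 8.24e-05), and its GATAAG lies 84 bases before the start. Both proline libraries of PIR5 lay far above the glutamine libraries, with a wide gap between the replicates.

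YNR068C (chromosome 14, 760067 to 760885, minus strand) had 2096 and 1517 scaled reads in the gat1Δ proline libraries, against 67.4 and 55.6 in the gat1Δ glutamine libraries (log2 fold change 4.49 ± 0.17, adjusted p = 3.77e-07). BSC5, which ends 237 bases upstream on the same strand, had 2604 and 1916 scaled reads in proline, against 113 and 80.7 in glutamine (log2 fold change 4.13 ± 0.18, adjusted p = 6.85e-07). YIL165C (chromosome 9, 33718 to 34077, minus strand) had 2204 and 1782 scaled reads in the gat1Δ proline libraries, against 159 and 164 in the gat1Δ glutamine libraries (log2 fold change 3.55 ± 0.16, adjusted p = 7.40e-07). It begins 9 bases after NIT1, a nitrilase gene that in other strains continues through both ORFs, and NIT1 rose alike (log2 fold change 3.61 ± 0.18, adjusted p = 1.44e-06). Both pairs thus moved as neighbours on the same strand.

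DPI8 (YJL133C-A, chromosome 10, 159623 to 159847, minus strand), which encodes a short protein, was the most abundant of the strong risers per base. It had 401 and 370.2 scaled reads in dal80Δ libraries, 4254 and 4956 in gat1Δ cells on proline and 236 and 199 in gat1Δ glutamine (log2 fold change 4.37 ± 0.14, adjusted p = 1.34e-07 for proline over glutamine). Both proline libraries of DPI8 stood far above the other 4. Its flanking genes LCB3 (log2 fold change 0.13 ± 0.16, adjusted p = 0.492) and MRS3 (log2 fold change 0.99 ± 0.14, adjusted p = 0.000262) moved far less. ARO5 (YGL117W, chromosome 7, 288512 to 289309, plus strand) had 9256 and 4788 scaled reads in the gat1Δ proline libraries, against 397 and 289 in the gat1Δ glutamine libraries (log2 fold change 4.23 ± 0.32, adjusted p = 1.19e-05). Its neighbour CDC20, an activator of the anaphase-promoting complex 499 bases downstream, rose too (log2 fold change 2.02 ± 0.24, adjusted p = 0.000111).

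IRC7 (YFR055W, chromosome 6, 264204 to 265226, plus strand), a β-lyase that cleaves cysteine conjugates, had 2651 and 2223 scaled reads in the gat1Δ proline libraries, against 147 and 193 in the gat1Δ glutamine libraries (log2 fold change 3.67 ± 0.16, adjusted p = 6.56e-07). YOR338W (chromosome 15, 956898 to 957989, plus strand) had 1728 and 1253 scaled reads in the gat1Δ proline libraries, against 137 and 108 in the gat1Δ glutamine libraries (log2 fold change 3.35 ± 0.18, adjusted p = 1.75e-06), and TEA1, an activator of Ty1 transcription that ends 274 bases upstream on the same strand, rose as well (log2 fold change 2.64 ± 0.16, adjusted p = 2.89e-06). YCL048W-A (chromosome 3, 41488 to 41727, plus strand) had 424 and 223 scaled reads in the gat1Δ proline libraries, against 11.4 and 11.1 in the gat1Δ glutamine libraries (log2 fold change 4.23 ± 0.29, adjusted p = 6.63e-06). The genes beside YCL048W-A moved far less. YCL049C upstream had a log2 fold change of -0.01 ± 0.15, adjusted p = 0.948, and SPS22 downstream one of 0.40 ± 0.15, adjusted p = 0.0368.

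The falls in proline were smaller than the rises. TOS6 (YNL300W, chromosome 14, 65744 to 66052, plus strand), a cell wall protein gene, had 46.0 and 103 scaled reads in the gat1Δ proline libraries, against 518 and 513 in the gat1Δ glutamine libraries (log2 fold change -2.77 ± 0.28, adjusted p = 4.54e-05). It was the only member outside an overlap to fall more than 4-fold. YLR342W-A (chromosome 12, 815810 to 815983, plus strand) had 400 and 446 scaled reads in the gat1Δ proline libraries, against 1465 and 1450.2 in the gat1Δ glutamine libraries (log2 fold change -1.78 ± 0.13, adjusted p = 8.58e-06). It lies 182 bases after FKS1, a subunit of glucan synthase, which fell too (log2 fold change -1.36 ± 0.17, adjusted p = 0.000118).

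NCW1 (YMR122W-A, chromosome 13, 511315 to 511569, plus strand), the cell wall protein gene among the most abundant members, had 1703 and 3159.9 scaled reads in the gat1Δ proline libraries, against 7131 and 6443 in the gat1Δ glutamine libraries (log2 fold change -1.54 ± 0.25, adjusted p = 0.000598). PMT7 (YDR307W, chromosome 4, 1075865 to 1077853, plus strand), a relative of the protein O-mannosyltransferases that modify secreted and wall proteins, had 447 and 469 scaled reads in the gat1Δ proline libraries, against 1235 and 1189 in the gat1Δ glutamine libraries (log2 fold change -1.32 ± 0.12, adjusted p = 3.17e-05). YBR096W had 333 and 493 scaled reads in the gat1Δ proline libraries, against 1396 and 1259 in the gat1Δ glutamine libraries (log2 fold change -1.67 ± 0.18, adjusted p = 6.17e-05).

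GPC1, an acyltransferase that makes lysophosphatidylcholine from glycerophosphocholine, had 345 and 553 scaled reads in the gat1Δ proline libraries, against 1153 and 1034 in the gat1Δ glutamine libraries (log2 fold change -1.26 ± 0.20, adjusted p = 0.000451). VHR2, a relative of the biotin-responsive transcription factor Vhr1, had 302 and 175 scaled reads in the gat1Δ proline libraries, against 588 and 636 in the gat1Δ glutamine libraries (log2 fold change -1.28 ± 0.22, adjusted p = 0.000855). CIP1, an inhibitor of the cyclin-dependent kinase of G1 phase, had 63.0 and 71.1 scaled reads in the gat1Δ proline libraries, against 242 and 164 in the gat1Δ glutamine libraries (log2 fold change -1.27 ± 0.18, adjusted p = 0.000239). HBN1, of the nitroreductase family, and RBH2 had log2 fold changes of -1.64 ± 0.27 and -1.43 ± 0.16 (adjusted p = 0.000599 and 7.60e-05). MTC7, abundant as given above, fell as well (log2 fold change -1.24 ± 0.14, adjusted p = 6.87e-05), as did HYP2, the gene of translation factor eIF5A that ends 29 bases before it (log2 fold change -1.15 ± 0.14, adjusted p = 0.000105). The 10 falls, and the 9 rises beside FMP23, kept their direction and their call under every alternative tried.

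**Figure D2:**
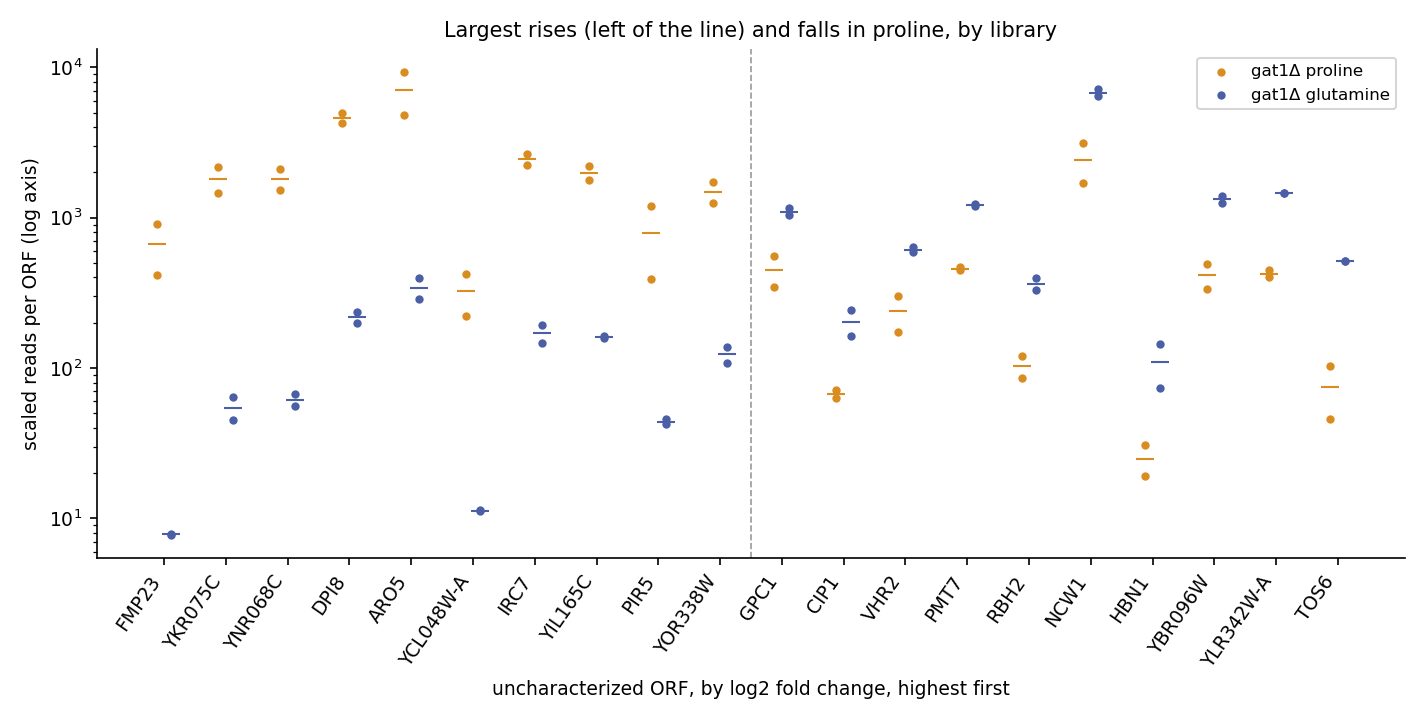
Scaled reads per ORF (y, log axis) in each library for the 10 largest rises and 10 largest falls in proline, with gat1Δ proline (orange) left of gat1Δ glutamine (blue) for each ORF. Points are libraries and bars are group means (n = 2). The rises of FMP23 and YCL048W-A start from glutamine libraries near 10 scaled reads, and in the falls the groups lie closer.

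Members now named for a known role were next grouped by that role. Their counts stand beside a background of 56.5% of all genes tested higher and 15.1% lower in proline. With TMM scaling that background was 33.8% higher and 29.8% lower. All 3 subunits of the mitochondrial pyruvate carrier, which brings pyruvate into the mitochondrial matrix, rose. MPC2 (YHR162W, chromosome 8, 423072 to 423461, plus strand) had 15368 and 12544 scaled reads in the gat1Δ proline libraries, against 2402 and 2567 in the gat1Δ glutamine libraries (log2 fold change 2.48 ± 0.15, adjusted p = 3.40e-06). MPC1 (log2 fold change 0.98 ± 0.17) and MPC3 (1.58 ± 0.28), the subunit known from respiring cells, rose less. All 3 rises were called with TMM scaling too.

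Of 10 members in respiratory chain assembly and inner membrane organization, 8 rose and 1 fell (5 rose with TMM scaling). For all genes tested, 56.5% rose and 15.1% fell, and with TMM scaling 33.8% rose and 29.8% fell. COX26, a small protein bound to cytochrome c oxidase, had 145 and 140.3 scaled reads in the gat1Δ proline libraries, against 18.4 and 12.2 in the gat1Δ glutamine libraries (log2 fold change 2.90 ± 0.16, adjusted p = 2.43e-06). COQ11, of coenzyme Q synthesis, had 1287 and 749 scaled reads in the gat1Δ proline libraries, against 246 and 169.7 in the gat1Δ glutamine libraries (log2 fold change 2.16 ± 0.25, adjusted p = 9.65e-05). MIC10, which shapes the junctions of the cristae, went the other way (log2 fold change -0.88 ± 0.14, adjusted p = 0.000484). The 16 MRX genes, named for a complex of mitochondrial gene expression, were mixed: 9 rose and 3 fell, and with TMM scaling 5 rose and 5 fell. MRX3 rose most (log2 fold change 1.44 ± 0.13) and MRX18 fell most (-1.11 ± 0.15).

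Of 9 methyltransferases of ribosomal RNA and translation proteins, 7 rose and 0 fell, where 56.5% of all genes tested rose. BMT6 had 763 and 611 scaled reads in the gat1Δ proline libraries, against 87.6 and 95.7 in the gat1Δ glutamine libraries (log2 fold change 2.60 ± 0.15, adjusted p = 2.43e-06). BMT5 (log2 fold change 2.08 ± 0.17) and BMT2 (1.93 ± 0.18), which like BMT6 methylate bases of the 25S ribosomal RNA, followed. EFM3 and EFM6, which methylate elongation factors, did not pass the test (log2 fold change 0.05 ± 0.13 and -0.25 ± 0.16). With TMM scaling 6 of the 9 rose, and EFM3 and EFM6 fell, where 33.8% of all genes tested rose and 29.8% fell.

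Of 6 autophagy members, 3 rose, where 56.5% of all genes tested rose. ATG38, of the lipid kinase complex that starts autophagosomes, had 291 and 168 scaled reads in the gat1Δ proline libraries, against 46.4 and 32.3 in the gat1Δ glutamine libraries (log2 fold change 2.10 ± 0.25, adjusted p = 0.000114). ATG39, the receptor for the nuclear envelope, had 191 and 155 scaled reads in the gat1Δ proline libraries, against 28.0 and 22.8 in the gat1Δ glutamine libraries (log2 fold change 1.92 ± 0.16, adjusted p = 1.64e-05). ATG45 also rose (log2 fold change 1.09 ± 0.16), while ATG36, ATG40 and ATG44 did not pass (log2 fold changes 0.24, 0.09 and -0.21). With TMM scaling the 3 rises were called again and ATG44 fell, where 33.8% of all genes tested rose and 29.8% fell.

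Among 9 transcription regulators, 6 rose and VHR2 fell, where 56.5% of all genes tested rose and 15.1% fell. The largest rises were those of EDS1 (log2 fold change 1.87 ± 0.15), TOG1, known for oleate use (1.76 ± 0.20), EUC1 (1.36 ± 0.13) and ERT1, a regulator of nonfermentable carbon use (1.28 ± 0.14). Of 5 vacuolar transporters, 4 passed the limit on reads and 2 rose. VSB1, for basic amino acids, had 5693 and 7383 scaled reads in the gat1Δ proline libraries, against 1668 and 1791 in the gat1Δ glutamine libraries (log2 fold change 1.86 ± 0.15, adjusted p = 1.74e-05), and YPQ1, for lysine, rose less (0.61 ± 0.16). VBA4 and YPQ2 had log2 fold changes of -0.01 and 0.01. With TMM scaling the balance of the vacuolar transporters turned, with 1 rise (VSB1) and 2 falls (VBA4 and YPQ2). The transcription regulators then had 5 rises and 1 fall, where 33.8% of all genes tested rose and 29.8% fell.

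All 4 peroxisome members rose, where 56.5% of all genes tested rose, but only PXP2 (3.03 ± 0.28) was called with TMM scaling. PXP2 had 2998 and 1487 scaled reads in the gat1Δ proline libraries, against 266 and 218 in the gat1Δ glutamine libraries (adjusted p = 3.10e-05). All 3 OCA members, named for the oxidant-induced arrest of the cell cycle, rose under both scalings, with OCA5 highest (1.66 ± 0.16). Of 7 sporulation and meiosis members only 4 reached the limit on reads, and SPR2 did so through the proline libraries alone, so that it had to differ. The other 3, OSW7, LDS2 and GMC1, rose by log2 fold changes of 0.49 to 1.11, of which LDS2 and GMC1 were called with TMM scaling. The fluoride exporters FEX1 and FEX2, which are near-identical copies so that their reads may be split, did not pass the test and were both lower with TMM scaling.

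**Figure D3:**
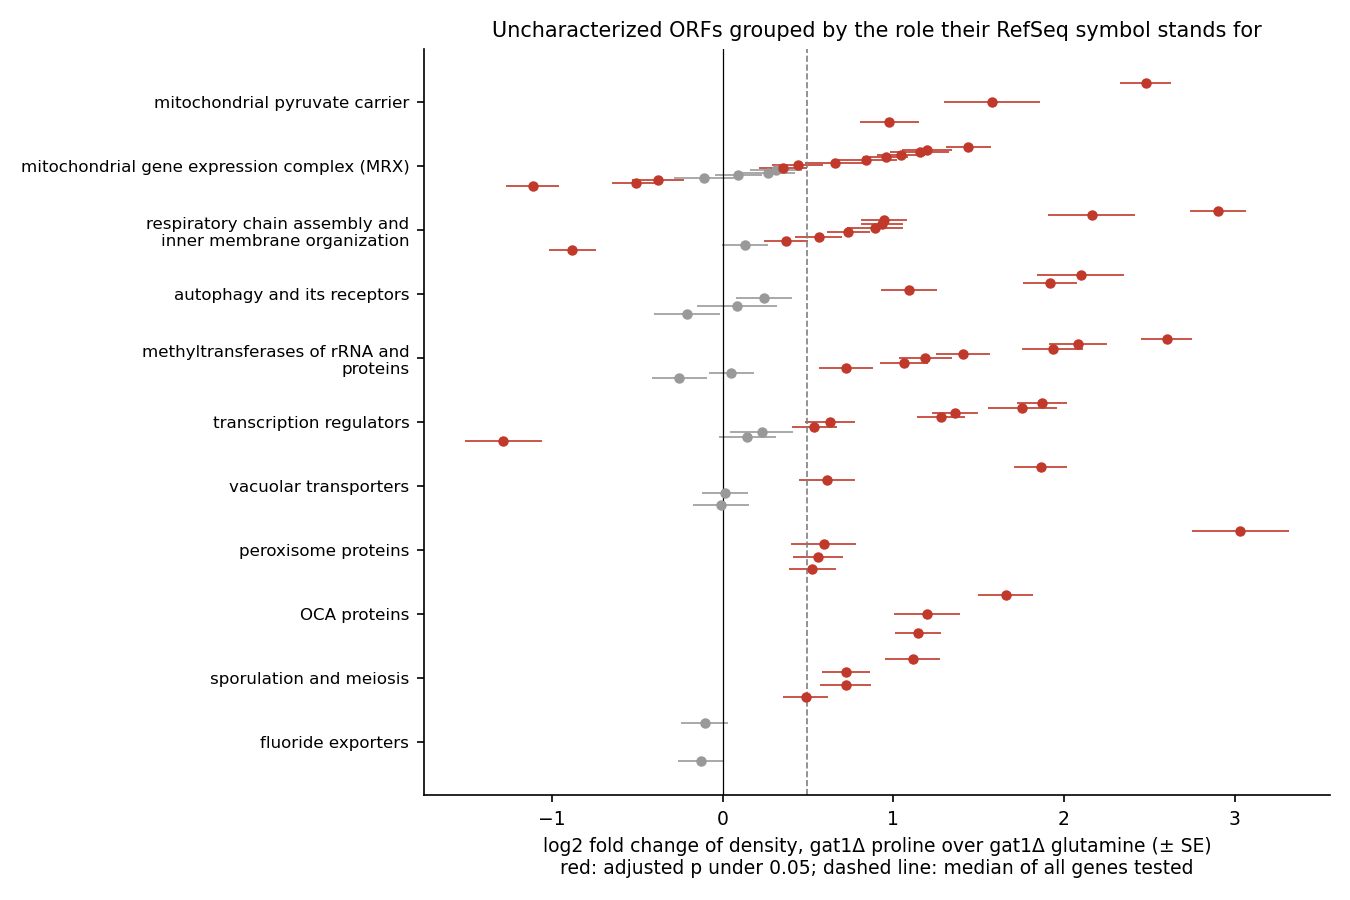
Log2 fold change of density (x, gat1Δ proline over gat1Δ glutamine) with its SE for each member of 11 role groups (rows), red where the adjusted p is under 0.05. The dashed line is the median of all genes tested, 0.50. The 3 pyruvate carrier subunits and the 3 OCA members all lie right of it, while the MRX genes spread over both sides of 0.

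Groups formed by name or place rather than by role were mixed. The background was again 56.5% of all genes tested higher and 15.1% lower, or 33.8% and 29.8% with TMM scaling. Of 12 FMP genes, found in mitochondrial preparations, 9 rose and 1 fell, with 5 rises and 1 fall under TMM scaling. FMP23 is among the 9 but had to differ, as said above, and FMP16 and FMP32 (log2 fold change 1.82 ± 0.24) were the next highest. Of 6 RRT genes 5 reached the limit and 4 rose, also with TMM scaling. RRT5 had 197 and 214 scaled reads in the gat1Δ proline libraries, against 9.63 and 8.90 in the gat1Δ glutamine libraries (log2 fold change 2.95 ± 0.13, adjusted p = 7.07e-07), RRT14 a log2 fold change of 1.78 ± 0.15 and RRT6 one of 1.47 ± 0.20. Of 8 TDA genes 7 reached the limit, with 2 rises, TDA5 and TDA7, and 2 falls, TDA3 and TDA4. With TMM scaling TDA5 alone rose and 5 fell. Of 5 members of the DUP240 family of similar membrane proteins, DFP3 (1.97 ± 0.22) and DFP1 (0.61 ± 0.18) rose and KTD1 fell (-0.90 ± 0.16), against 1 rise and 2 falls with TMM scaling. Both seripauperin (PAU) ORFs of this class stayed under the limit on reads, and IRC24 did not pass (log2 fold change -0.07).

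Position on the chromosome went with level. Of 116 uncharacterized ORFs within 25 kb of a chromosome end, 75 reached the limit on reads, against 652 of the 736 farther away. Those 75 had a median mean density of 0.0635, against 0.245 for the others. Of the 75, 39 rose and 6 fell in proline, and of the others 376 rose and 71 fell. Of all genes tested, 56.5% rose and 15.1% fell. With TMM scaling 20 of the 75 rose and 15 fell, and of the others 242 rose and 162 fell. The TMM shares of all genes tested were 33.8% and 29.8%. Among the 75, 8 reached the limit through 1 group alone and so had to differ between groups, as did 14 of the others. Of 175 ORFs under 300 bases, 113 reached the limit, and 65 rose and 12 fell (68.1%, against 67.6% of those of 300 bases or longer). With TMM scaling 47 of the 113 rose and 29 fell, beside the same TMM shares of all genes. Among the 113, 8 reached the limit through 1 group alone and so had to differ between groups.

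Few uncharacterized ORFs separated the strains. Between dal80Δ and gat1Δ cells in glutamine, 44 members passed the test (6.05%), 37 higher and 7 lower in dal80Δ, where 5.45% of all genes tested passed, 3.97% higher and 1.48% lower. The share among members was again near the background. Their median log2 fold change was -0.04, against -0.15 for all genes. At an unadjusted p under 0.05 there were 199 members (27.4%, against 28.4% of all genes). Single libraries moved the count: without dal80Δ replicate 1 it was 15, without dal80Δ replicate 2 it was 14 and without gat1Δ glutamine replicate 2 it was 29. With TMM scaling it was 77, with 73 higher, where 7.08% of all genes passed and 6.19% were higher. Of short ORFs, 13 of 113 under 300 bases were called (11.5%), none of them lower, against 24 higher and 7 lower of 614 that were longer (5.05%), a difference that was not tested. Of the 13, 2 belong to a set of 4 short ORFs beside repeated genes on chromosome 12, described with the neighbouring genes. This comparison shares its gat1Δ glutamine libraries with the proline comparison, so the results of the 2 are not independent.

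YCL048W-A showed the largest strain difference of any member. It had 462 and 705 scaled reads in the dal80Δ libraries, against 11.4 and 11.1 in the gat1Δ glutamine libraries (log2 fold change 5.10 ± 0.29, adjusted p = 1.05e-05), so that it was low only in the 2 gat1Δ glutamine libraries. The summed a-specific genes given above were likewise lowest in those 2 libraries, and their part in this result was not tested. Its neighbours YCL049C (log2 fold change 0.25 ± 0.15, adjusted p = 0.282) and SPS22 (-0.08 ± 0.15, adjusted p = 0.750) did not pass. The window in front of YCL048W-A holds AGGGG 247 bases and GATAAG 218 bases before the start.

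The next largest rises were of short ORFs. YER053C-A (chromosome 5, 260933 to 261046, minus strand) had 213 and 271 scaled reads in the dal80Δ libraries, against 36.8 and 18.9 in the gat1Δ glutamine libraries (log2 fold change 3.06 ± 0.27, adjusted p = 0.000221). FMP16 (YDR070C, chromosome 4, 588098 to 588379, minus strand), found in purified mitochondria, had 276 and 371 scaled reads in the dal80Δ libraries, against 57.8 and 40.6 in the gat1Δ glutamine libraries (log2 fold change 2.57 ± 0.31, adjusted p = 0.00188). In proline, FMP16 reached the same height (466 and 221), whereas YER053C-A rose less (77.0 and 58.2). CPP3 (YDR034W-B, chromosome 4, 521314 to 521469, plus strand), of a family of small cysteine-rich membrane proteins, had 136 and 209 scaled reads in the dal80Δ libraries, against 36.8 and 22.3 in the gat1Δ glutamine libraries (log2 fold change 2.41 ± 0.25, adjusted p = 0.000552), with 18.0 and 19.6 in gat1Δ proline.

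BDH2 (YAL061W, chromosome 1, 33448 to 34701, plus strand), a dehydrogenase related to the butanediol dehydrogenase Bdh1, had 1749 and 1335 scaled reads in the dal80Δ libraries, against 420.2 and 212 in the gat1Δ glutamine libraries (log2 fold change 2.24 ± 0.27, adjusted p = 0.00165). Neither neighbour on the chromosome, BDH1 (log2 fold change 0.08 ± 0.18, adjusted p = 0.777) and GDH3 (0.47 ± 0.18, adjusted p = 0.137), passed. EGO4 (YNR034W-A, chromosome 14, 692561 to 692857, plus strand), related to a subunit of the EGO complex that anchors nutrient signalling at the vacuole, had 115 and 167 scaled reads in the dal80Δ libraries, against 61.3 and 27.3 in the gat1Δ glutamine libraries (log2 fold change 1.59 ± 0.31, adjusted p = 0.0213). YNL195C (chromosome 14, 271523 to 272308, minus strand) had 141 and 176 scaled reads in the dal80Δ libraries, against 42.9 and 43.4 in the gat1Δ glutamine libraries (log2 fold change 1.52 ± 0.15, adjusted p = 0.000432). YNL194C, which ends upstream of YNL195C on the same strand, rose more (log2 fold change 2.76 ± 0.18, adjusted p = 2.97e-05).

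YNR014W (log2 fold change 1.38 ± 0.13, adjusted p = 0.000394), YMR090W (log2 fold change 1.23 ± 0.22, adjusted p = 0.0159) and YMR196W (log2 fold change 1.22 ± 0.15, adjusted p = 0.00177) completed the 10 largest. YMR196W had 2601 and 2933 scaled reads in the dal80Δ libraries, against 1275 and 1021 in the gat1Δ glutamine libraries, with 637 and 676 in gat1Δ proline. COX26 and YNL146C-A rose as strongly but lay under the mean of 50 scaled reads that the ranking required. COX26 had 54.1 and 56.8 scaled reads in the dal80Δ libraries, against 18.4 and 12.2 in the gat1Δ glutamine libraries (log2 fold change 1.61 ± 0.16, adjusted p = 0.000564), and YNL146C-A had 40.3 and 61.1 scaled reads in the dal80Δ libraries, against 11.4 and 5.01 in the gat1Δ glutamine libraries (log2 fold change 2.14 ± 0.26, adjusted p = 0.00172). ATG39 was higher as well (log2 fold change 0.85 ± 0.16, adjusted p = 0.0173), as was TDA6 (log2 fold change 1.02 ± 0.16, adjusted p = 0.00770). EGO4 and YMR090W lost their call without dal80Δ replicate 2 or gat1Δ glutamine replicate 2.

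AFB1 gave the only large fall. AFB1 (YLR040C, chromosome 12, 228908 to 229582, minus strand) encodes a secreted protein of α cells that binds the a-factor pheromone. It had 113 and 100.4 scaled reads in dal80Δ libraries, 2802 and 3419 in gat1Δ cells on proline and 2079 and 2113 in gat1Δ glutamine (log2 fold change -4.12 ± 0.14, adjusted p = 3.19e-07 for dal80Δ over gat1Δ in glutamine). Both dal80Δ libraries thus lay far below all 4 gat1Δ libraries, alongside the α-specific genes given above. Its smaller rise in proline (0.56 ± 0.14) passed the test under the authors' scaling and not with TMM.

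The other 6 falls in dal80Δ cells were smaller. NFG1, a negative regulator of filamentous growth that ends 383 bases before AFB1 on the same strand, had 54.1 and 60.6 scaled reads in the dal80Δ libraries, against 121 and 102 in the gat1Δ glutamine libraries (log2 fold change -0.84 ± 0.18, adjusted p = 0.0317). YGR035C had 46.1 and 44.6 scaled reads in the dal80Δ libraries, against 163 and 80.1 in the gat1Δ glutamine libraries (log2 fold change -1.20 ± 0.28, adjusted p = 0.0414). FDO1, which acts in the choice of donor during mating-type switching, had 47.0 and 53.6 scaled reads in the dal80Δ libraries, against 147 and 93.5 in the gat1Δ glutamine libraries (log2 fold change -0.94 ± 0.19, adjusted p = 0.0285). SFM1, a methyltransferase of a ribosomal protein, YPL034W and YPL071C lay just past the threshold (log2 fold changes -0.68, -0.58 and -0.58, adjusted p = 0.0433, 0.0474 and 0.0474). Without dal80Δ replicate 1 or replicate 2 AFB1 was the 1 member still called lower. YPL071C lay outside the rule for named ORFs and was named after its values were seen.

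**Figure D4:**
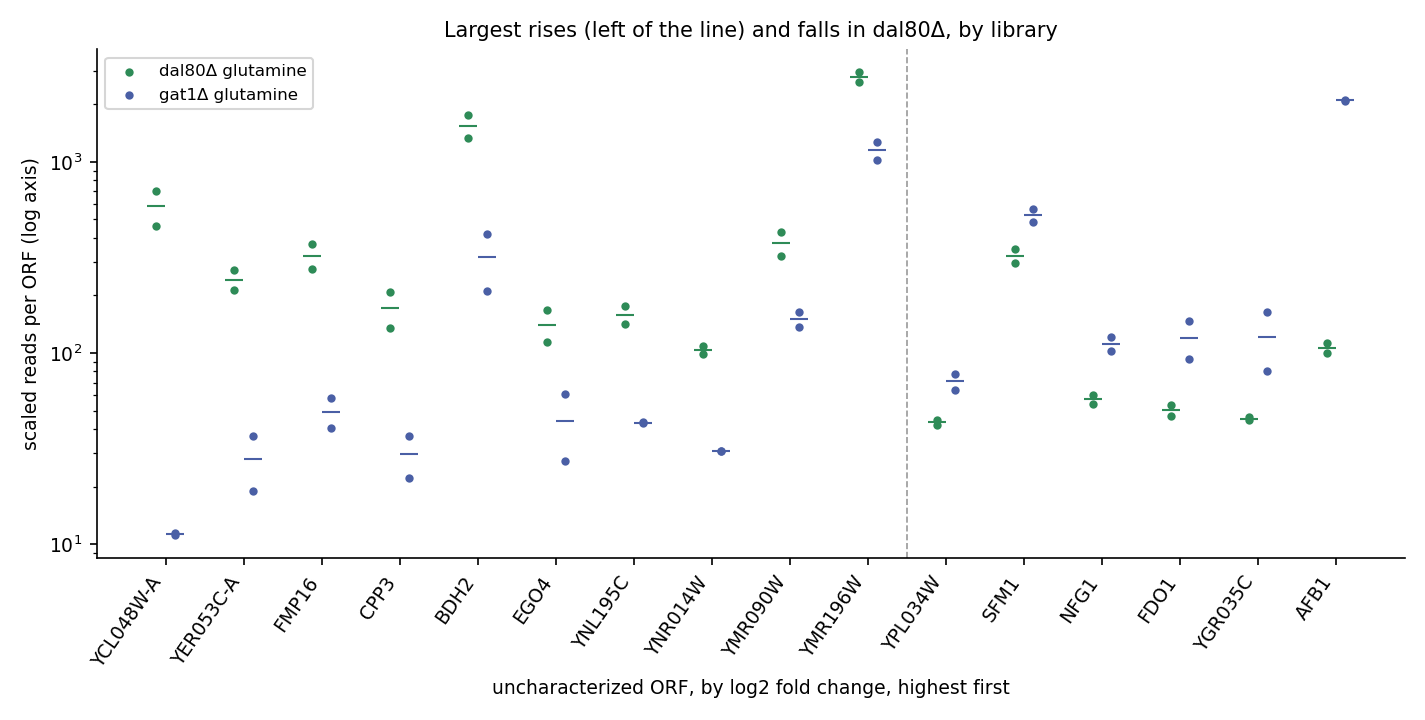
Scaled reads per ORF (y, log axis) in each glutamine library for the 10 largest rises and 6 falls in dal80Δ that met the rule for named ORFs, with dal80Δ (green) left of gat1Δ (blue) for each ORF. Points are libraries and bars are group means (n = 2). YCL048W-A at the left and AFB1 at the right have the widest gaps between groups.

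Some members passed both comparisons, which share the gat1Δ glutamine libraries, so their values are set side by side and no overlap is read from them. YCL048W-A, FMP16, YER053C-A, COX26 and YNL146C-A were higher in both. NFG1, lower in dal80Δ as given above, was higher in proline. NFG1 had 1148 and 819.7 scaled reads in the gat1Δ proline libraries, against 121 and 102 in the gat1Δ glutamine libraries (log2 fold change 3.01 ± 0.18, adjusted p = 3.05e-06), and YGR035C had a log2 fold change of 2.19 ± 0.28 in proline and -1.20 ± 0.28 in dal80Δ. FMP48, a putative kinase, was lower in proline (-1.15 ± 0.17) and higher in dal80Δ (0.80 ± 0.17), a call lost without any 1 of the 4 glutamine libraries. YMR196W went the same 2 ways (-0.73 ± 0.15 and 1.22 ± 0.15).

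The AGGGG core stood in front of many members that were higher in dal80Δ cells. It was in the window of 19 of the 37 (51.4%), including 8 of the 10 largest rises, where 26.3% of 725 members with a window and 22.0% of 5571 genes tested held it. Among the 185 other genes higher in dal80Δ cells, 48.6% held it, so members and other genes had like shares. CPP3 holds it 3 times, at 214, 110 and 101 bases before the start. FMP16 has it at 201, YER053C-A at 194 and EGO4 at 155 bases. BDH2 and YNL195C were the 2 of the 10 without it. Of the 7 members lower in dal80Δ cells, 1 held it. In the proline comparison it was in the window of 101 of 413 members higher (24.5%) and of 23 of 77 lower (29.9%). Of the 10 largest rises in proline 5 held it, and of the 10 largest falls 3 held it. These shares were not tested.

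GATAAG stood in the window of 61 of 413 members higher in proline (14.8%) and of 17 of 77 lower in proline (22.1%), against 14.8% of genes tested. It was in front of 6 of the 37 members higher in dal80Δ cells (16.2%), none of the 7 lower, and 39 of the 185 other genes higher (21.1%). These differences were not tested. Of the 10 largest rises in proline 5 held it (FMP23, YKR075C, DPI8, YCL048W-A and PIR5), in FMP23 inside the ORF, and of the 10 largest falls 3 held it (TOS6, YLR342W-A and RBH2). No window among the members ranked by size held it 2 or more times. TGAAACA, the element of the pheromone response, was in 6.62% of member windows and in none of the 10 largest rises of either comparison. The zinc-responsive element bound by Zap1 was in 1 member window. A match describes letters in a window and not binding.

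Changes of short ORFs were correlated with those of the gene in front of them on the same strand, with exceptions. Over 43 pairs of a member under 300 bases and a gene that ends within 1000 bases upstream, Spearman's rho of the log2 fold changes in proline was 0.56. Their levels had a rho of 0.48. Over the 282 such pairs of members of any length it was 0.16 for change in proline, and over 1978 pairs of verified genes 0.05. In the strain comparison rho was 0.36 for the short members, 0.28 for members of any length and 0.09 for verified genes. For divergent pairs, which start within 1000 bases on opposite strands, members (0.19, 238 pairs) and verified genes (0.21, 1970 pairs) had like values in proline. The pairs share libraries, and these are descriptions without a test. The 43 pairs include YGL188C-A with COX4, although YGL188C-A lies wholly inside RPS26A, as given below. In 4 of the 43 pairs the upstream gene is a copy of ASP3, an asparaginase gene repeated in tandem on chromosome 12, and reads of YLR154C-H, YLR156C-A, YLR157C-C and YLR159C-A may be split among the copies. With 1 copy kept, over 40 pairs, rho was 0.61 in proline, 0.32 in the strain comparison and 0.52 for level.

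Among the abundant members 2 such pairs had like values. YCR024C-B lies 79 bases after PMP1, a regulator of the plasma membrane proton pump, and the pair rose by log2 fold changes of 0.58 ± 0.14 and 0.62 ± 0.15 in proline. YLR285C-A lies 109 bases after the chitinase gene CTS1, with 1.05 ± 0.25 and 0.96 ± 0.24. Whether reads of such ORFs extend from the upstream transcript was not tested. The rises of YCR024C-B and YLR285C-A were not called with TMM scaling. In 9 of the 43 pairs the fitted changes had opposite signs. Both passed the limma test for YIR021W-A (-0.56 ± 0.12, adjusted p = 0.00299) behind MRS1 (0.54 ± 0.17, adjusted p = 0.0162). In each of the pairs that follow a single change passed. COX26 had a log2 fold change of 2.90 ± 0.16 and VBA4 in front of it one of -0.01 ± 0.16. YMR230W-A had 1.55 ± 0.19 behind RPS10B with -0.19 ± 0.17, DPC7 had 0.49 ± 0.29 behind YNK1 with -1.65 ± 0.15, and YOL013W-A had -1.19 ± 0.18 behind YOL014W with 0.16 ± 0.16.

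**Figure D5:**
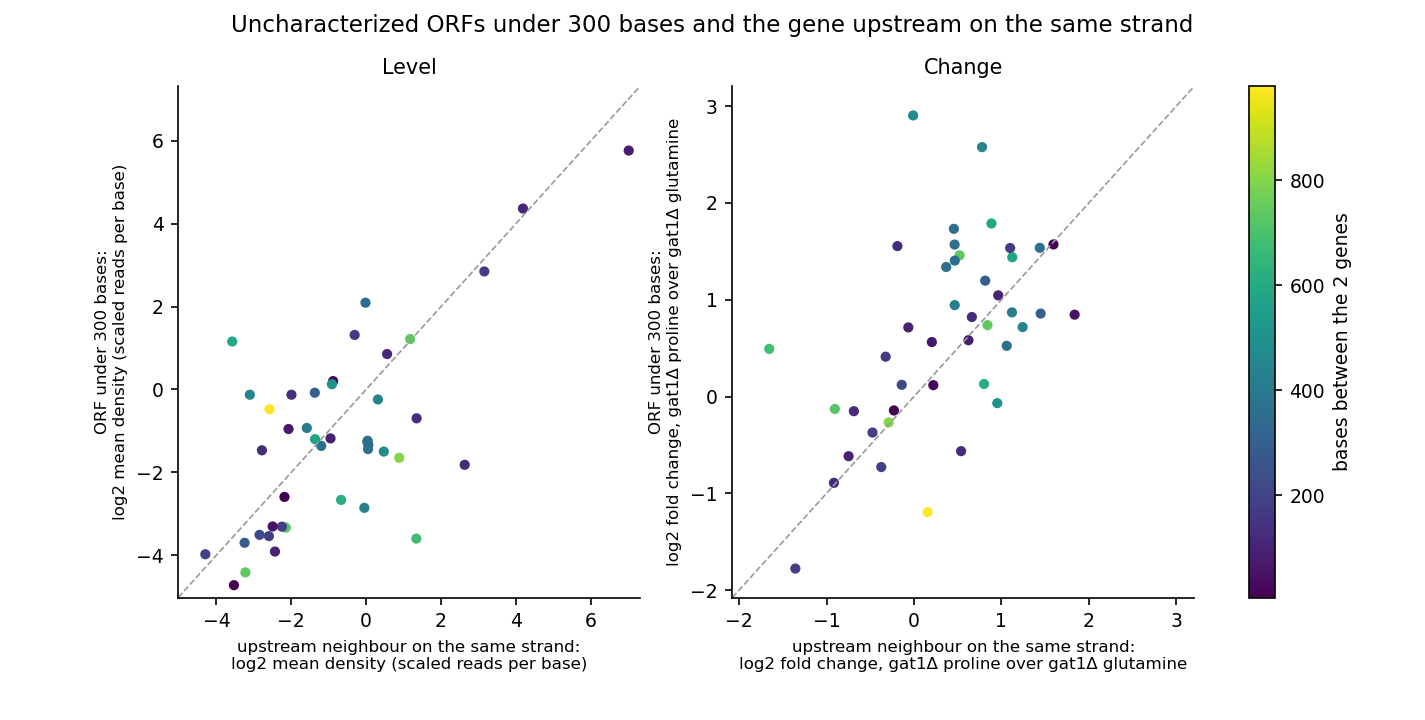
Each point is 1 of 43 uncharacterized ORFs under 300 bases, plotted against the gene that ends within 1000 bases upstream on the same strand, by log2 mean density (left) and by log2 fold change of gat1Δ proline over gat1Δ glutamine (right). Colour gives the bases between the 2 genes and the dashed line marks equal values. Points scatter around the line in both panels, and the change has a rho of 0.56.

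Some members cannot be read alone. Another feature on the same strand overlapped 28 members, of which 14 rose and 5 fell in proline. Of all genes tested, 56.5% rose and 15.1% fell. With TMM scaling 6 of the 28 rose and 7 fell, where 33.8% of all genes rose and 29.8% fell. YCL042W (chromosome 3, 50584 to 50943, plus strand) shares 106 bases with the glucokinase gene GLK1 and had 3979.8 and 3478 scaled reads in dal80Δ libraries, 158 and 173 in gat1Δ cells on proline and 1573 and 1389.6 in gat1Δ glutamine. YLL053C shares 50 bases with the aquaporin gene AQY2 (log2 fold change 2.73 ± 0.13 in proline), and YNL042W-B 84 bases with a tRNA gene (2.39 ± 0.14). YGL188C-A lies wholly inside RPS26A (1.46 ± 0.22), and the mitochondrial Q0255 shares 19 bases with COX2 (1.39 ± 0.28). Without the 28, 473 of 699 members were called in proline (67.7%, against 71.6% of all genes tested). In dal80Δ cells 42 were called (6.01%, against 5.45%). YJR079W, 78.1% covered by features of the opposite strand, was the only member covered over more than 50% of its length and did not pass (-0.31 ± 0.15).

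Several members on chromosome 12 stand out for spread between replicates, and were named after their values were seen. YLR154C-G, in the ribosomal DNA region, had 1020 and 7136 scaled reads in the gat1Δ proline libraries, against 1639.8 and 18.4 in the gat1Δ glutamine libraries (log2 fold change 3.84 ± 1.64, adjusted p = 0.0612). YLR161W had 38.0 and 1670.0 scaled reads in the gat1Δ proline libraries, against 37.6 and 27.8 in the gat1Δ glutamine libraries (log2 fold change 2.78 ± 1.27, adjusted p = 0.0761). The groups of YLR154C-G overlapped. For YLR161W the lower proline library lay just above the higher glutamine library, and the rise was in 1 proline library alone. Neither passed the test. The sources used here do not say how reads matching several places were counted.

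The limit on reads separated members by little. Just inside it, CSS1 had 6.65 and 6.37 scaled reads in dal80Δ libraries, 10 and 13.5 in gat1Δ cells on proline and 9.63 and 9.46 in gat1Δ glutamine. YBR072C-A and MOR1 were likewise just inside the limit, but their patterns differed. YBR072C-A was highest in gat1Δ glutamine (log2 fold changes over it of -0.98 in proline and -0.74 in dal80Δ). Just outside the limit, YLR031W had 5.32 and 9.56 in dal80Δ libraries, 12.0 and 7.96 in gat1Δ cells on proline and 7.88 and 2.78 in gat1Δ glutamine. YMR206W and YPR145C-A were likewise just outside. Of the members, 22 reached the limit through 1 group alone, 18 of them gat1Δ proline, 3 gat1Δ glutamine and 1 dal80Δ, and such members had to differ between groups. Without them, 473 of 705 members were called in proline (67.1%, against 71.6% of all genes tested). In dal80Δ cells 43 were called (6.10%, against 5.45%).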

How the data were processed

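RNA from yeast cultures was made into strand-specific libraries with a TruSeq Stranded kit after ribosomal RNA depletion, per the labels' protocols. The submitters' processing notes name TopHat and build R64. Neither the counting program nor the treatment of reads matching several places is named in those notes. The authors deposited 1 table with a read count and a density signal per feature and library, per the file headers. The deposited count was whole in gat1Δ proline replicate 1. In the other libraries it was scaled by 1 factor per library, so that whole reads were recovered for 100% of positive values within 0.01 reads. The deposited density signal is the scaled count divided by feature length. A further 6 columns of group values were not used.

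A gene was tested if 2 or more libraries held at least 10 scaled reads, which left 5594. The model was limma 3.58.1 (R 4.3.3) with a trend in the prior variance. Its input was the log2 density after adding 0.0229, a pseudocount set at the 5th percentile of all positive densities of genes. All 6 libraries entered 1 fit by group, with 3 residual degrees of freedom. Benjamini-Hochberg adjustment ran over those 5594 genes in each contrast. Named ORFs were the 10 largest rises and falls per contrast past the threshold of 0.05, with a mean of at least 50 scaled reads over the groups compared and no overlap of libraries or of features on the same strand. The most abundant, the most even, those called in both contrasts, family members, overlapping ORFs and those at the limit on reads were named too. Windows were to be printed for those of the largest rises and falls with at least 2 GATAAG matches, which none of them had. Of all 725 members with a window, 23 had at least 2 matches. The members, lists and role groups were chosen with earlier results of these data known. Alternatives were edgeR 4.0.16 and DESeq2 1.42.0 on recovered reads, TMM and RLE scaling, other filters and pseudocounts, a block for the replicate number, and leaving out each library in turn. Leaving out members that reached the limit on reads through 1 group alone, and keeping 1 copy of a tandem repeat, were added after seeing the data. The test was also run on simulated data in which a small part of the genes changed, in random directions. Those data lack the wide shift of genes seen in proline, so they cannot check the calls made under it. Of the 852 uncharacterized identifiers, 848 were in the RefSeq R64 annotation and 845 had the same coordinates.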

Additional observations from a re-analysis of the deposited data

How the results depend on the processing

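The number of members called in proline kept within 1.5 times its value under every alternative tried, but its split did not. Against 415 higher and 77 lower, TMM scaling gave 262 and 177, RLE scaling 251 and 190, edgeR 246 and 175, and DESeq2 221 and 176. The median log2 fold change of all genes tested moved too, from 0.50 to 0.06, 0.01, 0.06 and 0.01 in that order. With TMM 33.8% of all genes tested rose and 29.8% fell. Shares of all genes called were not taken for RLE, edgeR and DESeq2, so the split is not read as particular to the members. For dal80Δ over gat1Δ, against 44 calls (37 higher, 7 lower), there were 25 (23 and 2) with no filter, 77 (73 and 4) with TMM, 81 (75 higher) with RLE, 77 (71 higher) with edgeR and 90 (83 higher) with DESeq2. With 4 times the pseudocount 2 members were lower. The cause of these changes was not tested. Of all genes tested, 5.45% were called between strains under the authors' scaling and 7.08% with TMM. Leaving out each library in turn gave 431 to 503 calls in proline (364 to 441 higher, 56 to 76 lower) and 14 to 51 between strains (13 to 44 higher, 1 to 11 lower), with the lone library of a group taken to vary like the others. The replicate numbers were not shown to pair the samples (correlations of same-numbered deviations of -0.08, -0.25 and 0.01 over 5594 genes). With the number as a block, 485 members were called in proline, and between strains 39, 4 of them lower. In proline YNL190W turned negative with TMM (log2 -0.11), RLE (-0.16), edgeR (-0.11) and DESeq2 (-0.16), and YNL195C with DESeq2 (-0.0021). Of the other comparisons of a named value with an alternative, 1911 kept direction and side of the threshold, 121 lost the call and 53 gained one. The stricter filter left some low members without a value.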
